A study of Saccharomyces cerevisiae with 30 samples.

Results

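*CYC7* and *CYC1* encode the isoforms of cytochrome c in budding yeast, and both were followed on 30 Affymetrix Yeast S98 arrays, 1 RNA sample per array. They were taken as every probe set annotated to either gene, which gave 1 probe set each and 2 of the 5656 genes with a probe set of a single name. Of these genes 4242 passed a filter on dim signals and were tested, both members among them. *CYC7* passed only through its signal after UV, since all its untreated values were under the level required of the mean.

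The cells were BY4742, a haploid of the alpha mating type, with the chromosomal *RAD7* deleted in every strain and with a pRS313 (*HIS3*) plasmid. psocs *rad23*Δ cells carried *RAD7* with point mutations in its SOCS box (psocs) and had *RAD23* replaced by *URA3*. pRAD7 *rad23*Δ cells had the same replacement and wild-type *RAD7* on the plasmid, and the psocs and pRAD7 strains carried these plasmids with *RAD23* present. Each strain was sampled untreated and 15 and 60 min after 100 J/m2 of 254 nm UV, with 2 arrays per group in the *rad23*Δ strains and 3 in the others. *RAD7* was therefore read from a plasmid in all groups, and no strain with its own chromosomal *RAD7* was included. The labels call the replicates biological and do not state that they came from separate cultures, so that p-values here cover just the spread among these samples, which may be technical.

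Cytochrome c is a small haem protein of the mitochondrial intermembrane space that carries electrons from the bc1 complex to cytochrome c oxidase. Yeast has iso-1 cytochrome c from *CYC1*, the bulk of the protein in aerated cells, and iso-2 from *CYC7*, which is known from cells short of oxygen and from stressed cells. Haem-dependent activators, Hap1 and the Hap2/3/4/5 complex, act on *CYC1*, whereas *CYC7* is also known to respond to Rox1, the Cyc8-Tup1 corepressor and the stress factors Msn2 and Msn4.

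The labels were checked on the altered genes. Deposited *RAD23* signals were 1.26 to 4.40 in the 12 arrays of the *rad23*Δ strains and 605 to 1572 in the 18 others, and *URA3* signals were 241 to 614 against 0.76 to 9.78. *RAD7* signals were 17.4 to 54.2 with the psocs plasmid and 242 to 1167 with the pRAD7 plasmid, so that the plasmids differed in *RAD7* signal as well as in sequence. The 4 alpha-type marker genes had median signals of 1998 to 10004, while 4 of 5 a-type and 4 of 4 sporulation markers were dim. Arrays were scaled to a common median, with factors of 0.793 to 1.10, and all signals of *CYC7* and *CYC1* below are scaled signals in arbitrary units. The arrays carry RNA of whole cultures, where a change in the number of cells expressing a gene and a change in RNA per cell cannot be told apart.

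Before UV, *CYC7* was among the dimmest genes in each strain. Its signal was 59.0 and 36.1 in psocs *rad23*Δ cells and 43.2 and 27.2 in pRAD7 *rad23*Δ cells. It was 20.9, 21.3 and 27.7 in psocs cells and 21.5, 16.2 and 27.3 in pRAD7 cells. These values lay between the 5.14 and 16.9 percentiles of all genes of their array, and above the floor of 8.26 that was set on low signals. They were also within the range of 8 dim a-type and sporulation markers, genes expected to be silent in these cells, whose signals were 5.84 to 103 on the 10 untreated arrays. Untreated *CYC7* was thus not shown to be above background, and fold changes against it depend on that level.

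At 15 min after UV the *CYC7* signal was 302 and 1529 in psocs *rad23*Δ cells and 335 and 1415 in pRAD7 *rad23*Δ cells. It was 792, 413 and 572 in psocs cells and 1039, 523 and 719 in pRAD7 cells. Every irradiated array was above every untreated array, and the *rad23*Δ groups held both the lowest and the highest values of this time. At 60 min the signal was 2101 and 2719 in psocs *rad23*Δ cells and 1508 and 1558 in pRAD7 *rad23*Δ cells, against 646, 956 and 1073 in psocs cells and 1140, 794 and 954 in pRAD7 cells.

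*CYC1*, in contrast, kept to the middle of the array, between the 36.2 and 68.7 percentiles, and its highest signal was 3.30 times its lowest. Untreated signals were 309 and 427 in psocs *rad23*Δ cells, 232 and 444 in pRAD7 *rad23*Δ cells, 284, 244 and 189 in psocs cells and 175, 194 and 202 in pRAD7 cells. At 15 min they were 446 and 349 in psocs *rad23*Δ cells, 342 and 439 in pRAD7 *rad23*Δ cells, 270, 154 and 191 in psocs cells and 269, 158 and 201 in pRAD7 cells, which overlapped the untreated values in every strain. At 60 min they were 239.5 and 199.5 in psocs *rad23*Δ cells, 203 and 188 in pRAD7 *rad23*Δ cells, 155, 146 and 153 in psocs cells and 158, 135 and 152 in pRAD7 cells. At this time each strain's arrays lay below all of its untreated arrays, although with the signals as deposited they overlapped in psocs and pRAD7 cells. Levels of the probe sets are not set against each other, since probe sets differ in brightness.

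**Figure D1:**
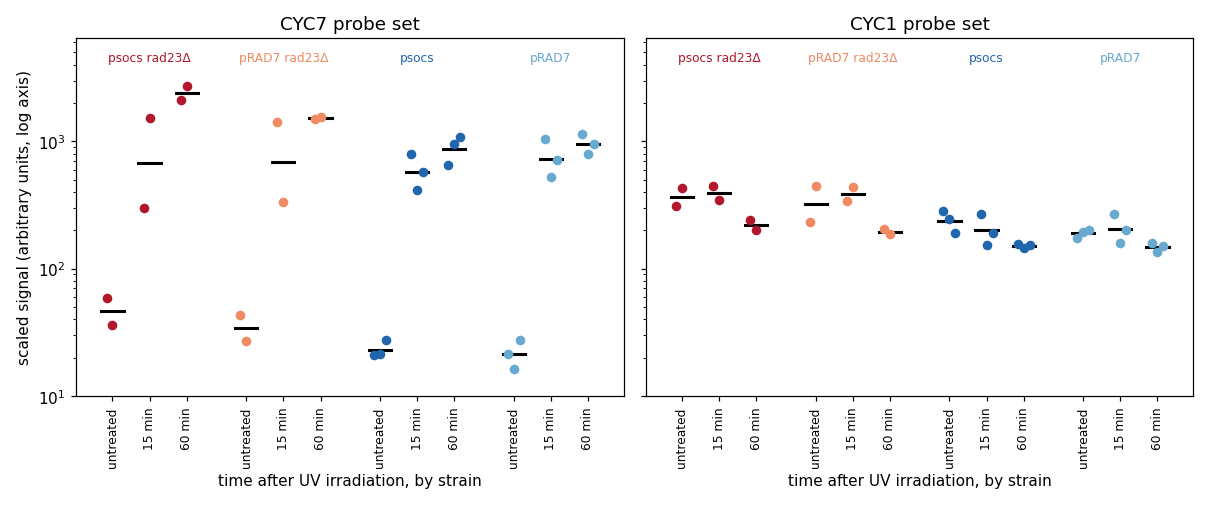
Scaled signal of *CYC7* (left) and *CYC1* (right) on a log axis in arbitrary units, for 4 strains untreated, 15 and 60 min after UV; points are arrays and lines the means of the log2 values (2 arrays per group in the *rad23*Δ strains, 3 in the others). *CYC7* runs from 16.2 in an untreated array to 2719 at 60 min, while all *CYC1* values lie between 135 and 446.

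The response to UV was tested as the change in log2 signal against untreated cells of the same strain, with limma fitted to all 30 arrays and p-values adjusted over the 4242 genes by the Benjamini-Hochberg method, and calls were made below an adjusted p of 0.05. *CYC7* was called higher in all 4 strains at 15 min. It rose by 3.88 ± 0.57 (SE) in psocs *rad23*Δ cells, a 14.7-fold change (adjusted p = 8.19e-05), and by 4.33 ± 0.57 in pRAD7 *rad23*Δ cells (20.1-fold, adjusted p = 2.15e-05). It rose by 4.63 ± 0.46 in psocs cells (24.8-fold, adjusted p = 1.31e-07) and by 5.11 ± 0.46 in pRAD7 cells (34.5-fold, adjusted p = 2.99e-08). For comparison, 10.2%, 8.84%, 21.5% and 23.2% of all tested genes were called higher in these strains, in the same order. The *CYC7* arrays at 15 min did not overlap the untreated arrays in any strain, as held for 59.9%, 53.2%, 45.0% and 49.9% of genes.

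At 60 min the rise of *CYC7* was 5.69 ± 0.57 in psocs *rad23*Δ cells (51.8-fold, adjusted p = 4.49e-08) and 5.48 ± 0.57 in pRAD7 *rad23*Δ cells (44.7-fold, adjusted p = 4.08e-08). It was 5.24 ± 0.46 in psocs cells (37.7-fold, adjusted p = 1.95e-09) and 5.49 ± 0.46 in pRAD7 cells (45.0-fold, adjusted p = 1.57e-09). By then 31.2%, 32.6%, 30.8% and 28.7% of genes were called higher.

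A lower bound on these folds was taken by raising untreated *CYC7* on each array to the brightest of the 8 dim markers where it was dimmer. These markers were picked as dim in these same arrays, and the a-type marker *MFA2*, which passed the dim filter, was left out. The bound therefore holds only against the 8 genes and is not a ceiling on background. The brightest a-type marker had a median deposited signal of 107 over all arrays. On this reckoning, added after the data were seen, *CYC7* at 15 min was at least 8.34-fold higher in psocs *rad23*Δ, 8.35-fold in pRAD7 *rad23*Δ, 7.53-fold in psocs and 9.0-fold in pRAD7 cells. At 60 min it was at least 29.3-fold, 18.6-fold, 11.5-fold and 11.7-fold higher, in the same order.

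*CYC1* was not called at 15 min in any strain, where 16.9%, 14.8%, 33.8% and 37.3% of genes were called in either direction, with changes of 0.12 ± 0.28 in psocs *rad23*Δ, 0.27 ± 0.28 in pRAD7 *rad23*Δ, -0.24 ± 0.23 in psocs and 0.11 ± 0.23 in pRAD7 cells. The 95% intervals of these changes ran between -0.71 and 0.85 over the 4 strains, so that changes of up to that size were not resolved. At 60 min *CYC1* was called lower in 3 of 4 strains. It fell by 0.73 ± 0.28 in psocs *rad23*Δ cells (adjusted p = 0.0282), by 0.71 ± 0.28 in pRAD7 *rad23*Δ cells (adjusted p = 0.0321) and by 0.64 ± 0.23 in psocs cells (adjusted p = 0.0181). In pRAD7 cells the change was -0.36 ± 0.23 (95% interval -0.83 to 0.11, adjusted p = 0.172). The share of all genes called lower was 28.8%, 28.2%, 34.0% and 36.1%, so that a fall of this kind was common. At the common median the 60 min and untreated arrays of *CYC1* did not overlap in any strain, as held for 79.2%, 81.6%, 67.1% and 70.7% of genes.

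The calls of *CYC1* at 60 min depended on the scaling and on single arrays. With the signals as deposited the change was -0.44 in psocs cells (adjusted p = 0.119) and -0.089 in pRAD7 cells (adjusted p = 0.765). In pRAD7 *rad23*Δ cells the call was lost without untreated replicate 2 (-0.24) and without either 60 min array (-0.77 and -0.66). In psocs *rad23*Δ cells it was lost without untreated replicate 2 (-0.50) or the 60 min replicate 2 (-0.60), and in psocs cells without untreated replicate 1 (-0.50).

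**Figure D2:**
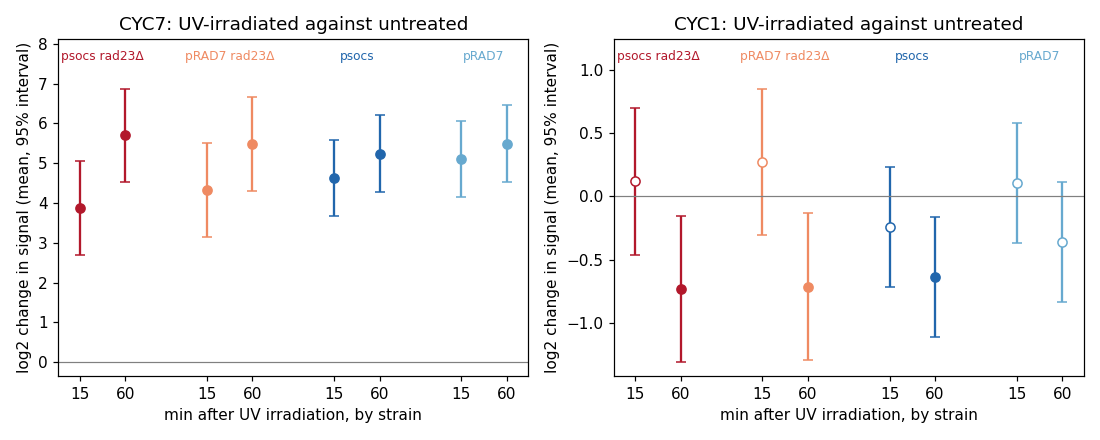
Log2 change in signal after UV against untreated cells for *CYC7* (left) and *CYC1* (right) at 15 and 60 min in 4 strains; points are limma estimates, bars 95% intervals, filled points adjusted p under 0.05, and the vertical axes differ. All *CYC7* changes lie between 3.88 and 5.69, whereas *CYC1* changes lie between -0.73 and 0.27.

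The signal of *CYC7* relative to *CYC1* was followed as the log2 ratio within each array. No test was run on this score, and only its change between conditions was read. Untreated ratios were -2.39 and -3.56 in psocs *rad23*Δ cells, -2.42 and -4.03 in pRAD7 *rad23*Δ cells, -3.76, -3.52 and -2.77 in psocs cells and -3.03, -3.58 and -2.89 in pRAD7 cells. At 15 min the ratios were -0.56 and 2.13 in psocs *rad23*Δ cells, 2.05 and -0.39 in pRAD7 *rad23*Δ cells, 1.55, 1.42 and 1.58 in psocs cells and 1.95, 1.73 and 1.84 in pRAD7 cells. At 60 min they were 3.13 and 3.77 in psocs *rad23*Δ cells, 2.89 and 3.05 in pRAD7 *rad23*Δ cells, 2.06, 2.71 and 2.81 in psocs cells and 2.85, 2.55 and 2.65 in pRAD7 cells. In every strain the 15 min ratios lay above the untreated ones and the 60 min ratios above those of 15 min. No share of such separations was taken over other gene pairs. Among single genes, 45.0% to 81.6% did not overlap between irradiated and untreated arrays of a strain. The *CYC7* signals of psocs and pRAD7 cells overlapped between 15 and 60 min.

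In mean, the ratio at 60 min was 86.0 times the untreated ratio in psocs *rad23*Δ cells, 73.3 times in pRAD7 *rad23*Δ cells, 58.7 times in psocs cells and 57.7 times in pRAD7 cells. At 15 min these factors were 13.5, 16.6, 29.2 and 32.1. They rest on the untreated *CYC7* signal and share its limit. The psocs and pRAD7 arrays at 15 min spread over a narrow range of ratios, 1.42 to 1.95, although their *CYC7* signals differed by 2.51 times and their *CYC1* signals by 1.75 times. In both of these strains the array with the higher *CYC7* signal at 15 min also had the higher *CYC1* signal, replicate 1 being highest and replicate 2 lowest for both genes.

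**Figure D3:**
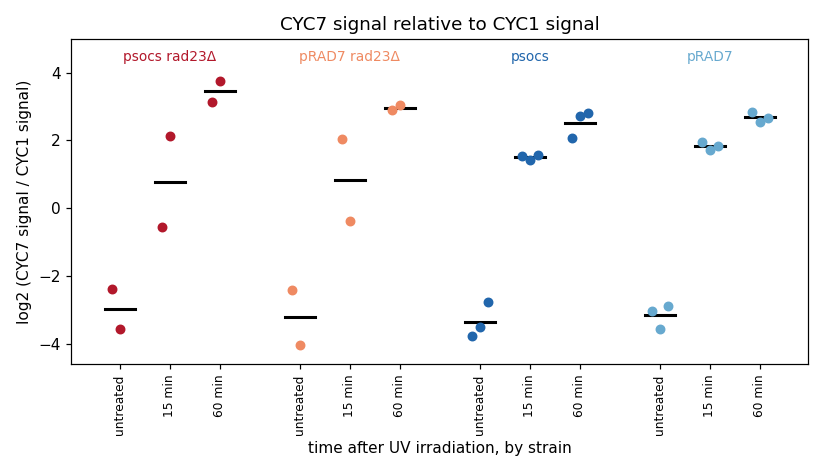
Log2 ratio of *CYC7* to *CYC1* signal in each array, by strain and time after UV; points are arrays and lines group means. The 10 untreated arrays lie between -4.03 and -2.39 and the 10 arrays at 60 min between 2.06 and 3.77, and the *rad23*Δ arrays at 15 min range from -0.56 to 2.13.

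From 15 to 60 min *CYC7* was called in 1 strain, while 19.5%, 20.5%, 22.2% and 19.0% of genes were called higher in psocs *rad23*Δ, pRAD7 *rad23*Δ, psocs and pRAD7 cells. It rose by 1.82 ± 0.57 in psocs *rad23*Δ cells (adjusted p = 0.0131), and its change was 1.15 ± 0.57 in pRAD7 *rad23*Δ (adjusted p = 0.103), 0.61 ± 0.46 in psocs (adjusted p = 0.274) and 0.38 ± 0.46 in pRAD7 cells (adjusted p = 0.51). *CYC1* fell between these times by 0.85 ± 0.28 in psocs *rad23*Δ cells (adjusted p = 0.0175) and by 0.99 ± 0.28 in pRAD7 *rad23*Δ cells (adjusted p = 0.00645), where 24.3% and 24.0% of genes were called lower. It was not called in psocs (-0.40 ± 0.23) or pRAD7 cells (-0.47 ± 0.23), where 32.1% and 33.3% were, and whose arrays of both times overlapped.

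The calls between 15 and 60 min depended on single arrays, among them 2 that stood apart. A list of 16 stress genes that Msn2 and Msn4 are known to activate, such as *CTT1*, *HSP12* and *DDR2*, had median log2 signals of 9.29 in replicate 1 of psocs *rad23*Δ and 9.21 in replicate 2 of pRAD7 *rad23*Δ at 15 min, against 10.2 to 10.8 in the other 8 arrays of that time. In these same arrays log2 *CYC7* was 8.24 and 8.39, against 10.58 and 10.47 in the other array of each group, and *CYC1* had the highest signals of its groups, 446 and 439. Leaving out both arrays leaves 1 array in each of these groups, and the calls were then lost. The *CYC7* change from 15 to 60 min in psocs *rad23*Δ cells was 0.64 in place of 1.82. The *CYC1* changes moved less, to -0.67 from -0.85 in psocs *rad23*Δ and to -0.81 from -0.99 in pRAD7 *rad23*Δ cells. The 2 arrays were picked after the data were seen and had the lower *CYC7* of their groups, so that leaving them out raises *CYC7* at 15 min. The psocs *rad23*Δ calls were also lost without replicate 2 at 60 min (1.63 for *CYC7* and -0.72 for *CYC1*). What sets the 2 arrays apart was not tested.

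Over all 30 arrays the median of the stress genes was 7.25 to 8.62 before UV, 9.21 to 10.8 at 15 min and 11.3 to 11.8 at 60 min. Before UV it was 8.33 to 8.62 in the *rad23*Δ strains and 7.25 to 8.10 in the others. At 60 min it was 11.3 to 11.8 in both, so changes against untreated cells also carry the untreated levels. At 60 min 16, 15, 16 and 16 of the 16 were called higher in psocs *rad23*Δ, pRAD7 *rad23*Δ, psocs and pRAD7 cells, and at 15 min 9, 6, 16 and 16 were, where 31.2%, 32.6%, 30.8% and 28.7% of all tested genes were called higher at 60 min and 10.2%, 8.84%, 21.5% and 23.2% at 15 min. Their median log2 change at 60 min was 3.13, 3.19, 4.39 and 4.11, against medians of 0.04, 0.08, -0.06 and -0.11 over all genes. *CYC7* is not on this list. Its own estimated change at 60 min was above the list median in all 4 strains, but rests on an untreated signal not shown to be above background. By the lower bound above it was at least 4.87, 4.21, 3.52 and 3.55, in the same order. In psocs and pRAD7 cells that bound is under the list median, so the place of *CYC7* against the list was not settled there.

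**Figure D4:**
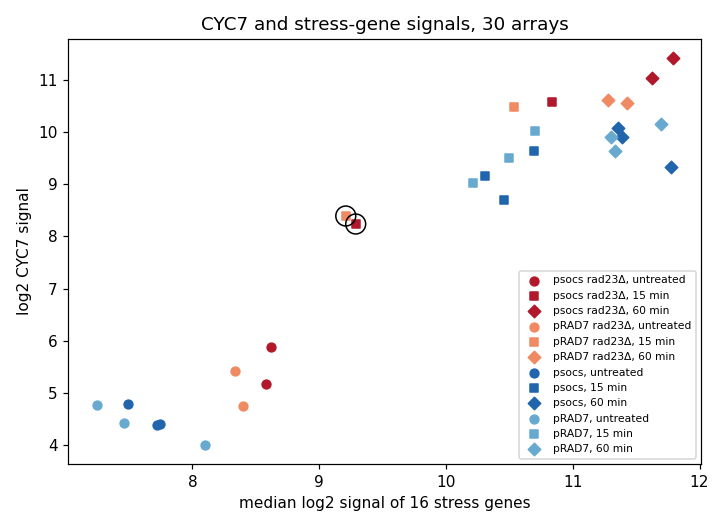
Log2 *CYC7* signal against the median log2 signal of 16 Msn2/4 stress genes in 30 arrays; colours mark strains, shapes mark time after UV. The 2 ringed *rad23*Δ arrays at 15 min, with stress medians of 9.21 and 9.29, lie between the untreated arrays and the other 15 min arrays on both axes.

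Before UV neither gene was called in any comparison between strains. *CYC1* was nominally higher without *RAD23*, by 0.62 ± 0.26 in psocs *rad23*Δ against psocs cells (adjusted p = 0.265) and by 0.76 ± 0.26 in pRAD7 *rad23*Δ against pRAD7 cells (adjusted p = 0.133). Between psocs *rad23*Δ and pRAD7 cells the difference was 0.93 ± 0.26 (unadjusted p = 0.00135, adjusted p = 0.0986), and it was called when only these groups were fitted (adjusted p = 0.0449). *CYC7* differed by 1.00 ± 0.52 (adjusted p = 0.408), 0.69 ± 0.52 (adjusted p = 0.55) and 1.12 ± 0.52 (adjusted p = 0.366) in these comparisons. Only 1.04%, 1.20% and 0.519% of genes were called in them. Between psocs and pRAD7 cells the differences were 0.13 ± 0.46 for *CYC7* and 0.31 ± 0.23 for *CYC1*, where 0.0236% of genes were called. That was 1 gene, *RAD7* itself (-3.80, adjusted p = 1.51e-10 by limma). The SOCS-box mutation and the lower *RAD7* signal of psocs cells therefore cannot be told apart. In turn, psocs *rad23*Δ differed from pRAD7 *rad23*Δ cells by 0.43 ± 0.57 and 0.18 ± 0.28, where 0.0943% were called, *RAD7* among them (-3.40).

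Levels after UV were compared between strains of the same plasmid in comparisons chosen after the data were seen. The *RAD7* signal was not the same within these pairs. At 60 min it differed by -1.19 in pRAD7 *rad23*Δ against pRAD7 cells (limma, adjusted p = 0.00068). In psocs *rad23*Δ against psocs cells the *RAD7* difference was -0.63 (adjusted p = 0.0734) and was not called. At 60 min *CYC7* was higher by 1.45 ± 0.52 in psocs *rad23*Δ than in psocs cells (2.74-fold, adjusted p = 0.0407), where 17.7% of genes were called higher, and by 0.69 ± 0.52 in pRAD7 *rad23*Δ than in pRAD7 cells (adjusted p = 0.287), where 33.3% were. All 4 *rad23*Δ arrays at this time, 1508 to 2719, were above all 6 arrays with *RAD23*, 646 to 1140. *CYC1* was likewise higher in all 4 *rad23*Δ arrays at 60 min, at 188 to 239.5 against 135 to 158. At this time 24.8% of genes showed that separation. With the signals as deposited the *CYC1* arrays overlapped, at 173 to 226 against 171 to 195, and its differences were 0.25 in the psocs pair (adjusted p = 0.531) and 0.0011 in the pRAD7 pair (adjusted p = 0.998). Those of *CYC7* stayed narrowly apart, at 1434 to 2744 against 729 to 1404, with 0.28 in the pRAD7 pair (adjusted p = 0.683). The share of 24.8% is for the common median, and none was taken for the signals as deposited. The psocs *rad23*Δ call for *CYC7* was lost with the signals as deposited (1.18, adjusted p = 0.0913) and with quantile normalization (1.23, adjusted p = 0.0802), and without any 1 of 4 arrays (replicates 1 and 2 of either group at 60 min), which gave 1.24 to 1.64.

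At 15 min the *CYC1* signal was 342 to 446 in the 4 *rad23*Δ arrays and 154 to 270 in the 6 arrays with *RAD23*, a separation shown by 5.42% of genes. The differences were 0.98 ± 0.26 in psocs *rad23*Δ against psocs cells (unadjusted p = 0.000844, adjusted p = 0.211) and 0.92 ± 0.26 in pRAD7 *rad23*Δ against pRAD7 cells (unadjusted p = 0.0015, adjusted p = 0.125), neither of which was called. Only 0.141% and 0.0943% of genes were called in these comparisons. *CYC7* at 15 min differed by 0.25 ± 0.52 in the psocs pair and -0.09 ± 0.52 in the pRAD7 pair, and without the arrays that stood apart the pRAD7 pair gave 0.95 (adjusted p = 0.265).

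The responses themselves were compared between strains by 10 interaction terms, each subtracting one strain's UV change from another's, and neither gene was called in any. At 60 min the *CYC7* response differed by 0.46 ± 0.73 between psocs *rad23*Δ and psocs cells (95% interval -1.06 to 1.98), by -0.01 ± 0.73 between pRAD7 *rad23*Δ and pRAD7 cells (-1.53 to 1.51) and by -0.25 ± 0.66 between psocs and pRAD7 cells (-1.61 to 1.10). The *CYC1* response differed by -0.09 ± 0.36 (-0.84 to 0.66), -0.35 ± 0.36 (-1.10 to 0.40) and -0.28 ± 0.32 (-0.95 to 0.39). In these comparisons 9.38%, 30.0% and 0% of genes were called, the last with 35 genes at an unadjusted p under 0.05, and 0.236% and 11.3% were for psocs *rad23*Δ against pRAD7 *rad23*Δ and pRAD7 cells. At 15 min limma called no gene in any of the 5 interactions, with 37 to 221 genes at an unadjusted p under 0.05, and the *CYC7* differences were between -1.23 and -0.45. The intervals leave room for differences of over 1 on the log2 scale in *CYC7*.

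Ordered by level, the 4 untreated groups were the lowest for *CYC7*, pRAD7 lowest (log2 4.40 ± 0.38, SD) and psocs *rad23*Δ highest (5.53 ± 0.50), and each neighbour in that order overlapped the next. A gap of 3.63 separated them from the groups at 15 min, and from psocs at 15 min up to pRAD7 at 60 min each group overlapped its neighbour in the order. pRAD7 *rad23*Δ at 60 min (10.58 ± 0.03) and psocs *rad23*Δ at 60 min (11.22 ± 0.26) stood above all other groups in mean. For *CYC1* the lowest groups were pRAD7 (7.21 ± 0.12) and psocs (7.24 ± 0.04) at 60 min, which overlapped each other and not the next group, and from there each group overlapped its neighbour up to psocs *rad23*Δ at 15 min (8.62 ± 0.25).

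Other yeast proteins also come as a pair of isoforms, one used in air and one known from low oxygen, and 4 such pairs were set beside *CYC7* and *CYC1* at 60 min. Of all tested genes, 31.2%, 32.6%, 30.8% and 28.7% were called higher in psocs *rad23*Δ, pRAD7 *rad23*Δ, psocs and pRAD7 cells. The shares called lower were 28.8%, 28.2%, 34.0% and 36.1%, so that a call of a single gene was common. *COX5B*, the low-oxygen form of subunit V of cytochrome c oxidase, rose by 1.97 ± 0.33 in psocs *rad23*Δ, 1.70 ± 0.33 in pRAD7 *rad23*Δ, 2.08 ± 0.27 in psocs and 1.61 ± 0.27 in pRAD7 cells. *COX5A*, its counterpart in air, was called in the *rad23*Δ strains only, at 0.50 and 0.60, and its changes were 0.23 and 0.38 in psocs and pRAD7 cells. Both *COX5A* calls were lost with the signals as deposited (adjusted p = 0.0831 and 0.0517) and with quantile normalization.

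The remaining low-oxygen forms did not rise in all strains, and the shares of all genes just given apply to their calls too. *ANB1*, a form of translation factor eIF5A, rose by 1.15 and 1.41 in psocs *rad23*Δ and pRAD7 *rad23*Δ cells and fell by 0.82 and 1.01 in psocs and pRAD7 cells. *AAC3*, an ADP/ATP carrier, rose by 0.72 in pRAD7 *rad23*Δ cells, fell by 0.60 and 0.83 in psocs and pRAD7 cells and was not called in psocs *rad23*Δ cells (0.10). With the signals as deposited the *AAC3* calls were lost in all 3 strains (that in pRAD7 *rad23*Δ cells with quantile normalization too), that of *ANB1* in psocs cells (-0.62, adjusted p = 0.0571), and those of *HMG1* in psocs and pRAD7 cells. *HMG2*, an HMG-CoA reductase of sterol synthesis, fell by 0.46 and 0.61 in the *rad23*Δ strains and was not called in the others (0.10 and -0.03). Of the forms used in air, *HMG1* fell in all 4 strains (-1.41, -1.66, -0.49 and -0.54), *PET9* was called in psocs *rad23*Δ cells (0.63), and *HYP2*, whose sequence is close to that of *ANB1* so that their probe sets may share signal, was lower in psocs and pRAD7 cells (-0.38 and -0.49), a direction that turned with quantile normalization (0.19 and 0.25).

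**Figure D5:**
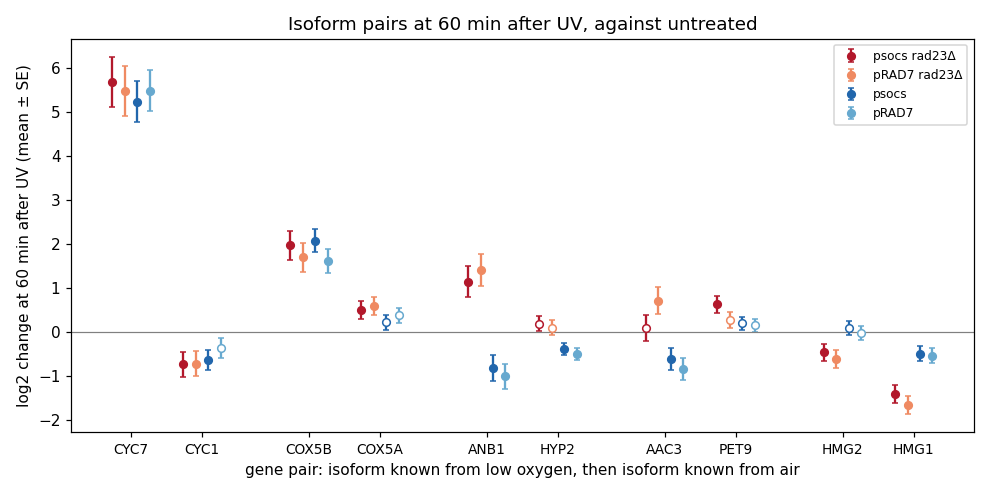
Log2 change at 60 min after UV against untreated cells for 5 isoform pairs, the form known from low oxygen left of the form used in air, in 4 strains; points are limma estimates, bars SE, and filled points adjusted p under 0.05. *CYC7* changes by 5.24 to 5.69 and *COX5B* by 1.61 to 2.08 in all strains, while *ANB1* lies above 0 in the *rad23*Δ strains and below 0 in the others.

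Most of the tested genes for the complexes on either side of cytochrome c rose. Of 9 nuclear genes of the bc1 complex, which hands electrons to cytochrome c, 8, 6, 8 and 7 were called higher at 60 min in psocs *rad23*Δ, pRAD7 *rad23*Δ, psocs and pRAD7 cells and none lower, with median changes of 1.14, 0.95, 0.98 and 0.92. *CYT1*, the cytochrome c1 that contacts cytochrome c, rose by 2.12, 2.08, 1.97 and 1.79, and *QCR9* by 1.58, 0.95, 1.31 and 1.23. Of 9 genes of cytochrome c oxidase, which accepts its electrons, 7 were called higher in each strain and none lower, with medians of 0.77, 0.60, 0.66 and 0.56. *COX13* changed by 1.71, 1.15, 1.04 and 0.77 and *COX12* by 1.28, 1.20, 1.03 and 1.05. At 15 min the calls were 2, 3, 6 and 6 of 9 for the bc1 complex and 5, 2, 6 and 6 of 9 for the oxidase. The shares of all tested genes called higher were 31.2%, 32.6%, 30.8% and 28.7% at 60 min and 10.2%, 8.84%, 21.5% and 23.2% at 15 min.

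*CCP1*, the cytochrome c peroxidase, rose at 60 min by 0.95, 1.50, 0.83 and 0.71. The other genes listed with it as electron partners outside the chain varied by strain. *DLD1* was lower in pRAD7 *rad23*Δ (-0.76) and higher in psocs cells (0.55). It was not called in psocs *rad23*Δ (0.07) or pRAD7 cells (0.37). *ERV1* was called higher in the *rad23*Δ strains (0.56 and 0.89) and was not called in psocs (0.08) or pRAD7 cells (-0.05). *CYT2*, which attaches haem to cytochrome c1, rose by 1.61, 1.97, 1.18 and 1.25, and *CYC3*, which attaches it to both cytochromes c, was called in psocs cells alone (0.54), with 0.14, 0.39 and 0.32 in psocs *rad23*Δ, pRAD7 *rad23*Δ and pRAD7 cells. *CYC2*, also of cytochrome c maturation, was called higher in all 4 strains (0.60, 0.73, 0.56 and 0.43). Its calls were not followed under the other scalings. Of all tested genes 31.2%, 32.6%, 30.8% and 28.7% were called higher. Of 7 tested genes of haem synthesis, 2, 2, 4 and 4 were called higher, and in the *rad23*Δ strains this was near the 31.2% and 32.6% of all genes. Among them was *HEM15*, the ferrochelatase (1.03, 0.73, 1.27 and 1.09). *HEM1*, the first enzyme, was lower in pRAD7 cells (-0.76), though not with the signals as deposited (-0.49, adjusted p = 0.106).

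Among 10 tested regulators the transcripts of *CYC8* and *MSN2* were lower at 60 min in every strain, where 28.8%, 28.2%, 34.0% and 36.1% of all genes were called lower. Falls were thus no more frequent among the regulators than among all genes. *CYC8* fell by 1.60, 1.55, 0.93 and 1.09. *MSN2* fell by 1.00, 0.66, 0.56 and 0.42. *CYC8* in psocs cells (adjusted p = 0.0633) and *MSN2* in pRAD7 cells (adjusted p = 0.324) lost the call with the signals as deposited. *HAP4*, the limiting subunit of the Hap2/3/4/5 complex, rose by 1.22 in psocs *rad23*Δ, 2.10 in psocs and 1.56 in pRAD7 cells and was not called in pRAD7 *rad23*Δ cells (-0.27). *ROX1*, the repressor of low-oxygen genes (0.25, 0.80, -0.35 and -0.68), and *TUP1* (-0.51, -0.08, -0.25 and -0.17) were not called at 60 min in any strain. *HAP1* was called only in psocs *rad23*Δ cells, where it was higher by 0.63, a call lost with the signals as deposited (adjusted p = 0.0820), and its changes were -0.05, -0.45 and -0.43 in pRAD7 *rad23*Δ, psocs and pRAD7 cells.

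By place on the chromosome, *RAD7* is the 5th annotated gene from *CYC1*, and *RAD23* is the 2nd annotated gene from *CYC7*, with *UTR4* between them. The *URA3* insertion of the *rad23*Δ strains is therefore close to *CYC7*, and an effect of losing *RAD23* and an effect of the altered locus on *CYC7* cannot be told apart. Of the neighbours within 5 genes of *CYC7*, 7 were tested besides *RAD23*, and none was called between untreated strains. At 60 min 0, 1, 1 and 0 of the 7 were called higher in psocs *rad23*Δ, pRAD7 *rad23*Δ, psocs and pRAD7 cells and 3 in each strain lower, against 28.8%, 28.2%, 34.0% and 36.1% of all genes called lower. *UTR4*, of methionine salvage, was called higher in pRAD7 *rad23*Δ cells (1.23) and not in the others (0.51, 0.55 and 0.38), and *UTR2*, a cell wall enzyme on the other side, fell in all 4 (-1.59, -0.91, -1.93 and -2.26), as did *GDA1*, a Golgi enzyme (-1.25, -1.44, -1.40 and -1.59). Beside *CYC1*, 9 neighbours were tested besides *RAD7*, and none was called between untreated strains, and at 60 min 6, 7, 3 and 3 were called higher and 0, 1, 1 and 2 lower, where 31.2%, 32.6%, 30.8% and 28.7% of all genes were called higher. *UTR1*, an NAD kinase, rose by 1.16, 1.30, 0.70 and 0.88 and *VPS55*, of vacuolar sorting, by 1.51, 1.59, 1.35 and 1.40.

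The genes whose pattern was most like that of *CYC7*, by Pearson correlation of log2 signal over the 12 group means, were *MBF1* (0.994), *RGI1* (0.993), *TMA10* (0.989), *PIN3* (0.988) and *OPI10* (0.988). They shared the arrays with *CYC7*, and their changes at 60 min in psocs *rad23*Δ, pRAD7 *rad23*Δ, psocs and pRAD7 cells were 6.17, 5.14, 5.61 and 5.03 for *RGI1*, 6.34, 5.31, 6.40 and 5.50 for *TMA10* and 2.00, 2.12, 2.12 and 2.11 for *MBF1*, a transcriptional coactivator. Nearest to *CYC1* were *ALG5* (0.942), *HXT2* (0.930), a glucose transporter, *CLN3* (0.926), a G1 cyclin, *MID1* (0.913) and *ERG6* (0.913), of ergosterol synthesis. Across the single arrays these correlations were 0.936 to 0.981 for *CYC7* and 0.622 to 0.742 for *CYC1*. Between *CYC7* and *CYC1* the correlation over group means was -0.26.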

How the data were processed

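Total RNA of each sample was hybridised to 1 Affymetrix Yeast S98 array. The intensities deposited by the authors are linear MAS 5.0 signals from Affymetrix Expression Console, 1 value per probe set, with each array scaled to 1 target (the mean of the middle 96% was 499.8 to 499.9). No detection calls were used here. An array gives no count depth, and the number of arrays limits the precision.

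Of 9335 probe sets, 60 were controls, 6504 had 1 gene name, 328 several and 2443 none in the annotation used, and all 6504 names were matched to the R64 gene table, which also gave gene neighbours. The build behind the deposited values is not given in the sources used here. Each array was scaled to a median of 123.0, values under the 10th percentile (8.26) were raised to it, log2 was taken, and the brightest probe set per gene was kept. A gene mean of at least log2 6.53, the 25th percentile, was required, which left out genes such as *HEM3*, *MOT3*, *CYB2*, *YEF1* and *UTR5*. A mean per group was fitted over all 30 arrays (limma 3.58.1, R 4.3.3, trended eBayes prior), and the Benjamini-Hochberg adjustment ran over 4242 genes per comparison. The fit was tested on simulated data. Errors of changes are limma's SE and errors of levels are SD.

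*CYC1* and *CYC7*, the comparisons and the gene lists were chosen with earlier results of these data known. Up to 4 genes of largest change were named per list, with the 5 genes most like each member and the 5 genes on either side, besides *HAP1*, *ROX1*, *TUP1* and *HEM1*, which were named for their roles after their values were seen. The alternatives tried were no dim filter, a filter at the 50th percentile, no floor, the signals as deposited, quantile normalization, the replicate number as a block, only the groups compared, and each array left out in turn. The fits without the arrays that stood apart, the comparisons of levels after UV, a crossed block and the lower bound on *CYC7* folds were added after seeing the data.

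Same-numbered arrays deviated together between psocs and pRAD7 groups of the same time (r over genes of 0.15 to 0.60 for every pair) and between psocs groups at 60 min and untreated (0.18 to 0.51), and there the number pairs the arrays. Fits with it as a block changed no call there. In the other comparisons not every pair was over 0.1, or there were only 2 pairs.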

Additional observations from a re-analysis of the deposited data

Results flagged for a closer look

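Neither *CYC7* nor *CYC1* was called in any comparison of responses between strains, and the test for a single outlying array, which needs 4 or more, was not run on these groups (the 2 arrays that stood apart at 15 min are described above). By limma's interaction test, other genes differed in response at 60 min between a *rad23*Δ strain and the *RAD23* strain of the same plasmid. Of those given here, all but *QCR10*, *TAH11*, *OSM1* and *GTA1* are named above. In pRAD7 *rad23*Δ against pRAD7 cells the difference in log2 change was 2.42 ± 0.46 for *ANB1* (adjusted p = 0.000427), the neighbour of *CYC1*, 1.55 ± 0.39 for *AAC3* (adjusted p = 0.00506), 1.48 ± 0.50 for *ROX1* (adjusted p = 0.0275), 1.35 ± 0.36 for *UTR2* (adjusted p = 0.00743), 0.79 for *CCP1*, 0.72 for *CYT2*, 0.60 for *TAH11* and 0.60 for *HYP2*. It was -1.83 ± 0.58 for *HAP4* (adjusted p = 0.0198), -1.12 ± 0.27 for *HMG1* (adjusted p = 0.00328), -0.97 for *QCR10*, -0.81 for *OSM1* and -0.66 for *GTA1*. For *DLD1* it was -1.13 ± 0.36 (adjusted p = 0.0218) and for *ERV1* 0.94 ± 0.22 (adjusted p = 0.00259). In psocs *rad23*Δ against psocs cells it was 1.97 ± 0.46 for *ANB1* (adjusted p = 0.00957), 1.08 ± 0.33 for *HAP1* (adjusted p = 0.0424) and -0.93 ± 0.27 for *HMG1* (adjusted p = 0.0322).

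The median of all genes in the pRAD7 comparison was 0.15, and -0.27 with the signals as deposited. With the signals as deposited the differences of *CCP1*, *CYT2*, *TAH11*, *HYP2*, *ROX1* and, in the psocs comparison, *HAP1* were no longer called. With quantile normalization those of *CCP1*, *CYT2*, *TAH11* and *HAP1* lost the call too, and that of *HYP2* turned to -0.23. Of all genes, 30.0% were called in the pRAD7 comparison and 9.38% in the psocs comparison, and the *rad23*Δ groups held 2 arrays each. Leaving out each array in turn kept the calls of *ANB1*, *AAC3* and *HMG1* in the pRAD7 comparison, and each of the other differences followed lost its call in at least 1 such fit. Those of *DLD1* and *ERV1* were not followed under any of these alternatives. No cause was tested.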

How the results depend on the processing

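The rises of *CYC7* after UV kept their direction in every strain under every alternative, and their calls in all but 2 cases: fitted to only the groups compared, the 15 min changes missed the threshold in pRAD7 *rad23*Δ (4.33, adjusted p = 0.0894) and psocs *rad23*Δ cells (3.88, adjusted p = 0.0597). That fit also lost *CYC7* between 15 and 60 min in psocs *rad23*Δ (1.82, adjusted p = 0.0690) and *CYC1* at 60 min in pRAD7 *rad23*Δ cells (-0.71, adjusted p = 0.0791), and called *CYC1* at 60 min in pRAD7 cells (-0.36, adjusted p = 0.0464), untreated *CYC1* in psocs *rad23*Δ against pRAD7 cells (0.93), and the pRAD7 *rad23*Δ against pRAD7 levels at 60 min of *CYC7* (0.69, adjusted p = 0.00646) and *CYC1* (0.40, adjusted p = 0.0381), which were 0.28 (adjusted p = 0.683) and 0.0011 (adjusted p = 0.998) with the signals as deposited. It uses fewer arrays for the spread, and called 11 genes in place of 626 at 15 min in pRAD7 *rad23*Δ, 59 in place of 716 in psocs *rad23*Δ cells, 1155 in place of 1859 between 15 and 60 min in psocs *rad23*Δ cells, 140 in place of 398 for the 60 min response difference of psocs *rad23*Δ and psocs cells (599 with the signals as deposited) and 741 in place of 1132 for their level at 60 min.

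With the signals as deposited, the all-gene median change shifted by 0.27 and 0.20 at 60 min in pRAD7 and psocs cells and by -0.15 and -0.09 in pRAD7 *rad23*Δ and psocs *rad23*Δ cells. *CYC1* in psocs cells at 60 min (-0.44) and the *CYC7* level at 60 min in psocs *rad23*Δ against psocs cells (1.18) were then not called, and *CYC7* there was also lost with quantile normalization (1.23) and without the dim filter (1.45, adjusted p = 0.0514). Changes near 0 turned: *CYC1* at 15 min in pRAD7 (-0.0096) and psocs *rad23*Δ cells (-0.025), and the response differences of *CYC1* between psocs *rad23*Δ and pRAD7 *rad23*Δ at 60 min (0.035) and between psocs *rad23*Δ and pRAD7 at 15 min (-0.015, and -0.045 with quantile normalization) and of *CYC7* between psocs *rad23*Δ and pRAD7 at 60 min (-0.16). The *CYC7* to *CYC1* ratio change from 15 to 60 min in pRAD7 cells moved to 1.02 from 0.85 with quantile normalization. *HYP2* turned there at 60 min in pRAD7 (0.25) and psocs cells (0.19) and in its pRAD7 *rad23*Δ difference (-0.23).

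Without the arrays that stood apart, called changes from 15 to 60 min were lost for *CYC7* in psocs *rad23*Δ (0.64) and for *CYC1* in psocs *rad23*Δ (-0.67) and pRAD7 *rad23*Δ cells (-0.81). Uncalled values turned for *CYC1* at 15 min in psocs *rad23*Δ cells (-0.058), for the 15 min response differences of *CYC7* in pRAD7 *rad23*Δ against pRAD7 (0.26) and psocs *rad23*Δ against psocs (0.42) and of *CYC1* in pRAD7 *rad23*Δ against pRAD7 (-0.012) and psocs *rad23*Δ against pRAD7 (-0.16), and for the 15 min *CYC7* level in pRAD7 *rad23*Δ against pRAD7 (0.95).

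Leaving out 1 of 2 *rad23*Δ arrays leaves a lone array, at 15 min in 2 cases the one that stood apart, which is assumed to vary like the other groups. Leaving out 1 array at a time, *CYC1* changes from 15 to 60 min ran from -0.65 to -0.27 in pRAD7, -1.17 to -0.81 in pRAD7 *rad23*Δ and -1.03 to -0.67 in psocs *rad23*Δ cells. Its changes at 15 min ran from -0.094 to 0.29 in pRAD7, -0.20 to 0.74 in pRAD7 *rad23*Δ and -0.11 to 0.35 in psocs *rad23*Δ cells, and at 60 min from -1.18 to -0.24 in pRAD7 *rad23*Δ, -0.80 to -0.50 in psocs and -0.97 to -0.50 in psocs *rad23*Δ cells. The *CYC1* response differences were -0.30 to 0.64 (15 min) and -0.82 to 0.12 (60 min) for pRAD7 *rad23*Δ against pRAD7, -0.22 to 0.25 (15 min) for psocs *rad23*Δ against pRAD7, -0.62 to 0.32 (15 min) and -0.49 to 0.45 (60 min) for psocs *rad23*Δ against pRAD7 *rad23*Δ, and -0.33 to 0.14 (60 min) for psocs *rad23*Δ against psocs. Untreated *CYC1* in psocs *rad23*Δ against pRAD7 *rad23*Δ cells was -0.29 to 0.65. For *CYC7*, changes from 15 to 60 min were 0.12 to 2.19 in pRAD7 *rad23*Δ and 0.64 to 2.99 in psocs *rad23*Δ cells, and levels were -1.12 to 0.95 (15 min) in pRAD7 *rad23*Δ against pRAD7 and -0.92 to 1.42 (15 min) and 1.24 to 1.64 (60 min) in psocs *rad23*Δ against psocs cells. The *CYC7* response differences were -1.82 to 0.26 (15 min) and -0.34 to 0.33 (60 min) for pRAD7 *rad23*Δ against pRAD7, -0.15 to 0.56 (60 min) for psocs *rad23*Δ against pRAD7, -1.62 to 0.72 (15 min) and -0.14 to 0.56 (60 min) for psocs *rad23*Δ against pRAD7 *rad23*Δ, and -1.92 to 0.42 (15 min) for psocs *rad23*Δ against psocs. Untreated *CYC7* in psocs against pRAD7 cells was -0.067 to 0.31.

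With the replicate number as a block no call of *CYC7* or *CYC1* changed, and counts of called genes moved by over 1.5 times for untreated psocs *rad23*Δ against pRAD7 (38 with the replicate block, 22 without) and for the levels at 15 min (7 and 4 in the pRAD7 pair, 10 and 6 in the psocs pair). In fits of only the groups compared, the replicate block gave 63 genes (1 without) for untreated psocs *rad23*Δ against pRAD7 *rad23*Δ and 27 (11 without) at 15 min in pRAD7 *rad23*Δ cells. Crossing the numbers was tried after seeing the data in every comparison between 2 groups of 2 arrays. Where same-numbered arrays had a correlation under -0.1, it called 777 genes at 15 min in psocs *rad23*Δ (61 with the numbers as labelled) and 2610 at 60 min in pRAD7 *rad23*Δ cells (2452). Elsewhere it called 32 (27) at 15 min in pRAD7 *rad23*Δ and 2618 (2313) at 60 min in psocs *rad23*Δ cells. Between 15 and 60 min it called 1451 (1119) in pRAD7 *rad23*Δ and 874 (1217) in psocs *rad23*Δ cells. For untreated psocs *rad23*Δ against pRAD7 *rad23*Δ it called 0 (63). Untreated strain counts were 82, 69 and 48 with the signals as deposited and 51, 44 and 22 with the common median, for pRAD7 *rad23*Δ against pRAD7, psocs *rad23*Δ against psocs and psocs *rad23*Δ against pRAD7. Without the arrays that stood apart 1068 genes were called between 15 and 60 min in psocs *rad23*Δ cells. A second probe set could not be tried, since each gene had 1.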
